A study of Mus musculus with 6 samples.

Results

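The 34 genes described here make up the absorptive surface of the colonocyte, the cell that lines the upper part of the colonic crypt and takes up water, salt and short-chain fatty acids. They were chosen as a list of named genes: channels, exchangers and carriers, the adhesion and motor proteins of the microvilli, surface enzymes, and membrane proteins of the colonic epithelium. All 34 were found by symbol among the 40840 genes of the deposited table. Microvilli stand on the apical face of these cells as a brush border, each built on an actin bundle and tied to its neighbours by tip links of protocadherins. Salt uptake there runs through paired sodium/proton and chloride/bicarbonate exchangers and, in the distal colon, through a sodium channel under aldosterone control, while brush border genes as a group come on as cells leave the crypt base and stop dividing.

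RNA-seq was performed on DSS organoids, set up from 3 wt C57BL/6 mice that had been given dextran sodium sulfate (DSS), and on control organoids from 3 wt C57BL/6 mice. DSS, which injures the colonic epithelium, was given at 2.5% in drinking water for 5 days from an age of 10 weeks and, after 2 weeks, for another 5 days. DSS organoids were set up on day 14 after DSS, and all RNA was taken on day 4 of culture. The labels give no age for the control mice. Cultures grew from crypts in Matrigel, and the study's methods give a medium with L-WRN conditioned medium, a source of Wnt, R-spondin and Noggin, which holds crypt cells in growth. Levels are given in TPM, a share of transcripts that corrects for transcript length and sums to the same total in every library.

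Some facts of the libraries touch every result. The number of genes reaching 1 TPM was 11539 to 11607 in DSS and 11328 to 11470 in control libraries, and sequencing depth is unknown because TPM keeps none. Epithelial markers were high in every library, with the 9 pan-epithelial markers (Krt8, Cdh1, Cldn7 and others) summing to 9336 to 15423 TPM in DSS and 13995 to 15492 TPM in control libraries. In DSS replicate 1, 5 of the 9 lay below every control library. Markers of fibroblasts, smooth muscle, endothelium and lymphocytes each summed to at most 0.38 TPM in DSS and 1.47 TPM in control libraries. The 12 myeloid markers summed to 208 to 352 TPM in DSS and 55.6 to 75.0 TPM in control libraries. Of the 6 that were tested 4 rose, where 6.45% of all tested genes were called higher. Tyrobp, Fcer1g and Itgam, among the 4, had control means of 0, 0.1 and 0.22 TPM. They were tested only because of their DSS levels, so this count is a description. Lyz2 was 145, 227 and 123 TPM in DSS and 5.19, 2.04 and 1.09 TPM in control replicates 1, 2 and 3, and Tyrobp was listed at 0 in the 3 control libraries. DSS replicate 1 stood apart from the other DSS libraries: it had the lowest pan-epithelial sum (9336 TPM), the highest goblet marker sum (5205 TPM, against 1753 and 2265 TPM in DSS replicates 2 and 3) and the highest sum of 6 cycling markers (705 TPM, against 248 and 470 TPM, and 103 to 158 TPM in control libraries). Lgr5, the receptor of crypt base stem cells, was under 1 TPM in all 6 libraries. Axin2, another of the 4 stem markers listed, was 8.69, 4.49 and 4.8 TPM in DSS and 7.75, 6.53 and 4.82 TPM in control libraries. The 4 summed to 17.4, 6.41 and 7.83 TPM in DSS replicates 1, 2 and 3 and 7.45 to 14.8 TPM in control libraries, and 0 of the 3 tested were called. In bulk RNA, fewer cells of a type and less RNA per cell cannot be told apart.

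The promoters shown here are those of 4 genes that differed between the groups and of the chloride/bicarbonate exchanger gene Slc26a3, so that the DNA next to these genes can be read beside their levels. RefSeq promoter windows (build GRCm38.p6) were matched by symbol for 25 of the 34 genes and cut to the 250 bases before the transcription start. Each is written 5′ to 3′ on the strand of the gene, and capitals mark a match to TTTATG (a core of the sites bound by CDX factors), CAAAGTCC (HNF4), the HNF1 motif or TATAAA (the TATA box), searched on both strands. TTTATG and the reverse complement of TATAAA share their first 5 letters, and no stretch can match both in full.
Slc5a8 (chr10:88885742-88885991, + strand): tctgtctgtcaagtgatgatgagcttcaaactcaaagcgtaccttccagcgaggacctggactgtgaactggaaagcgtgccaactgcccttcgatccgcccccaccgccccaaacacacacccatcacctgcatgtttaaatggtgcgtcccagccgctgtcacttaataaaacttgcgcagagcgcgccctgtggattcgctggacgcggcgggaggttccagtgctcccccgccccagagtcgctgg
Epcam (chr17:87635729-87635978, + strand): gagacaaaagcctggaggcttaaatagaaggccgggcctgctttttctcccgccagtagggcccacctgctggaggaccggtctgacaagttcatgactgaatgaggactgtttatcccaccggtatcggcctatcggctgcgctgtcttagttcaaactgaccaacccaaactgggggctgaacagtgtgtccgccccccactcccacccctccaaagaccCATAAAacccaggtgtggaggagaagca
Dpp4 (chr2:62412232-62412481, - strand): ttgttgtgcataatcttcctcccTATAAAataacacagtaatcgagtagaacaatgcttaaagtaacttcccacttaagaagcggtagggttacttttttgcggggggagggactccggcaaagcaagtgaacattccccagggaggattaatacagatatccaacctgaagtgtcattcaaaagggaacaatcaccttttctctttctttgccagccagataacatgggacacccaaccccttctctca
Apob (chr12:7977427-7977676, + strand): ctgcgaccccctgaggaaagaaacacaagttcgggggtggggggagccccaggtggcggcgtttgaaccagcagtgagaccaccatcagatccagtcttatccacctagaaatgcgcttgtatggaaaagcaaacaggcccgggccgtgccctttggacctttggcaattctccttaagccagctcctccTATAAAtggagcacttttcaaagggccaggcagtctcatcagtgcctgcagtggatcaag
Slc26a3 (chr12:31437969-31438218, + strand): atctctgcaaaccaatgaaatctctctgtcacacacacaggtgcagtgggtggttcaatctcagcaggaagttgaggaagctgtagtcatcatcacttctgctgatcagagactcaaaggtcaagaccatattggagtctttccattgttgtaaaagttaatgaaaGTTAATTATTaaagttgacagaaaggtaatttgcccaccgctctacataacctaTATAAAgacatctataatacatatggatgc

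Slc26a3 held an HNF1 motif match whose first base lay 84 bases before the start and a TATAAA match 30 bases before it. The Epcam window held a TTTATG match on the reverse strand, 28 bases before the start. Apob had TATAAA at 60 bases and Dpp4 at 227 bases before the start, and Slc5a8 had none of the 4 motifs. The window of Slc6a14, which also differed between the groups, held none of the 4 motifs and is not shown. No window was matched for Aqp4. Among the 25 genes with a window, TTTATG was found in 5 (20%; 12.4% of all 27025 genes with windows), CAAAGTCC in 2 (8.0%; 1.38%), the HNF1 motif in 2 (8.0%; 0.44%) and TATAAA in 6 (24%; 14.3%). The CAAAGTCC matches were in Alpi and Slc51a and the second HNF1 match in Cdhr2. A match is a run of letters and not evidence of binding.

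Few of the genes differed between DSS and control organoids when all 6 libraries were used. Genes with a mean of at least 1 TPM were tested by limma on log2(TPM + 1), with p-values adjusted over all 11643 genes tested and a threshold of 0.05. This left 31 of the 34 genes, Slc51a, Scnn1b and Scnn1g being too low. Aqp4, Slc6a14, Slc5a8 and Epcam rose and Dpp4 and Apob fell. Calls over the whole table made up 10.3% of tested genes. These 6 were 4 higher (12.9% of 31, where 6.45% of all tested genes were called higher) and 2 lower (6.45%, where 3.89% were called lower). Scaling moved the split of the calls over the whole table, from 751 higher and 453 lower in TPM to 622 and 588 after median-ratio scaling and 559 and 611 after quantile normalization, while all 6 genes stayed called in the same direction. At an unadjusted p under 0.05 there were 10 (32.3%, against 29.6% of all tested genes). The median log2 fold change over the 31 genes was 0.26, beside 0.05 over all tested genes. DSS values lay above every control value in 6 genes (19.4%, against 21.1% of all tested genes) and below every control value in 3 (9.68%, against 15.3%), shares no higher than those of the whole table.

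**Figure D1:**
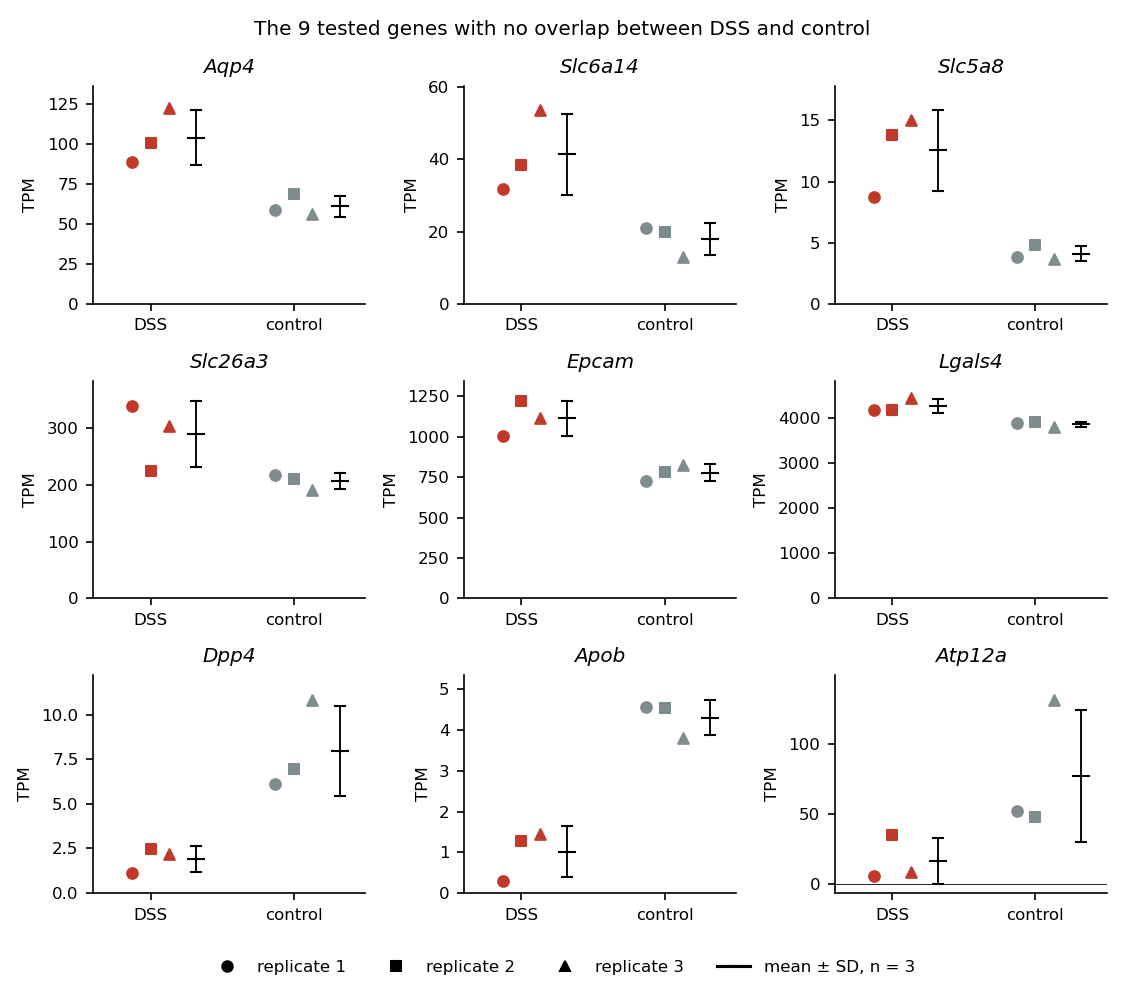
TPM (vertical axis) of the 9 tested genes with no overlap between groups, in 3 DSS and 3 control libraries; symbols give the replicate number and the bar beside them the mean ± SD (n = 3). Aqp4, Slc6a14, Slc5a8, Slc26a3, Epcam and Lgals4 lay higher in DSS organoids and Dpp4, Apob and Atp12a lower, and Slc26a3, Lgals4 and Atp12a did not pass the test.

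Of the 2 water channels, 1 passed the test. Aqp4, a water channel of the basolateral membrane, was 88.9, 101 and 123 TPM in DSS replicates 1, 2 and 3 and 58.95, 68.8 and 56.2 TPM in control replicates 1, 2 and 3, and it rose (log2 fold change 0.75, SE 0.15, adjusted p = 0.0298). Every DSS library lay above every control library. Aqp8, the main water channel of surface colonocytes, was 128, 823 and 480.3 TPM in DSS and 682, 630.2 and 783 TPM in control libraries. DSS replicate 1 held 18.3% of the control mean while DSS replicate 2 was above all controls, so the groups overlapped (log2 fold change −0.91, SE 0.62, adjusted p = 0.374, 95% interval −2.39 to 0.57).

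Among carriers of organic solutes, 2 of the 3 tested rose. Slc5a8, the sodium-coupled carrier that takes up butyrate and other monocarboxylates, was 8.77, 13.8 and 15.1 TPM in DSS and 3.86, 4.8 and 3.66 TPM in control libraries (log2 fold change 1.38, SE 0.22, adjusted p = 0.0176). Slc6a14, a broad sodium- and chloride-coupled amino acid carrier, was 31.9, 38.5 and 53.8 TPM in DSS and 20.9, 20 and 13.03 TPM in control libraries (log2 fold change 1.15, SE 0.25, adjusted p = 0.0355). In both, DSS replicate 3 was highest, DSS replicate 1 lowest of the DSS libraries, and no DSS value reached down to a control value. Slc51b, the beta subunit of the basolateral organic solute transporter that exports bile acids, was 4.78, 27.4 and 40.3 TPM in DSS and 10.1, 14.9 and 6.78 TPM in control libraries (log2 fold change 0.77, SE 0.71, adjusted p = 0.518). Its partner Slc51a was far lower, at 0.36, 2.21 and 1.76 TPM in DSS and 0.46, 0.25 and 0.1 TPM in control libraries, under the filter (exact two-sided permutation test on mean TPM, p = 0.2, where 0.1 is the smallest p that 3 against 3 libraries allow). Both subunits were above every control library in DSS replicates 2 and 3 and within or below the control range in DSS replicate 1.

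None of the 6 anion and proton exchange genes passed the test. Slc26a3, the apical chloride/bicarbonate exchanger whose loss in humans causes congenital chloride diarrhoea, was 339, 225 and 305 TPM in DSS and 219, 209.9 and 191 TPM in control libraries (log2 fold change 0.47, SE 0.16, adjusted p = 0.114). All DSS values lay above the control values, DSS replicate 2 by the least. Of the 6 fits with 1 library left out, only the one without that lowest DSS library passed (adjusted p = 0.0185), and the other 5 gave adjusted p between 0.132 and 0.29. Slc9a3, the sodium/proton exchanger that works beside it, was 14.7, 48.7 and 54.98 TPM in DSS and 13.6, 17.7 and 12.4 TPM in control libraries (log2 fold change 1.19, SE 0.47, adjusted p = 0.15). DSS replicates 2 and 3 held 334% and 378% of the control mean and DSS replicate 1 held 101%. The related exchanger Slc9a2 was 37.5, 94.96 and 87.97 TPM in DSS and 48.6, 54.5 and 42.3 TPM in control libraries (log2 fold change 0.49, SE 0.34, adjusted p = 0.39), with DSS replicate 1 below and DSS replicates 2 and 3 above every control. Slc12a2, the basolateral sodium-potassium-chloride cotransporter that feeds chloride secretion, ran the other way among DSS libraries, at 130.4, 50.3 and 62.4 TPM against 58.5, 48.4 and 45.9 TPM in control libraries (log2 fold change 0.54, SE 0.34, adjusted p = 0.328). It was highest in DSS replicate 1. Atp12a, the catalytic subunit of the colonic proton/potassium pump, was 6.09, 35.3 and 8.47 TPM in DSS and 52.1, 47.98 and 132 TPM in control libraries (log2 fold change −2.38, SE 0.67, adjusted p = 0.0691, 95% interval −3.97 to −0.80). No DSS value reached the control values, but control replicate 3 was more than the other control libraries and DSS replicate 2 more than the other DSS libraries. Of the 6 fits with 1 library left out, only the one without DSS replicate 2, the DSS library nearest the controls, passed (adjusted p = 0.0166), and the other 5 gave adjusted p between 0.0856 and 0.212. Slc26a2, a sulfate carrier, was 37.8, 72.1 and 92.98 TPM in DSS and 98.4, 77.6 and 80.3 TPM in control libraries, lowest in DSS replicate 1 (log2 fold change −0.42, SE 0.31, adjusted p = 0.419).

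Of the 3 epithelial sodium channel genes, only that of the alpha subunit was high enough to test. Scnn1a was 16.1, 16.9 and 16.9 TPM in DSS and 17.7, 14.2 and 9.93 TPM in control libraries (log2 fold change 0.27, SE 0.20, adjusted p = 0.401), and the DSS values fell inside the control range. Scnn1b, the beta subunit, was 0.27, 0.22 and 0 TPM in DSS and 0.05, 0 and 0.1 TPM in control libraries (exact two-sided permutation test, p = 0.4), and Scnn1g, the gamma subunit, was listed at 0 in all 6 libraries. Some genes that set the activity of this channel did differ. Among 13 tested regulators 3 rose and 1 fell, where 6.45% of all tested genes were called higher and 3.89% lower. The regulators too were listed with earlier results of these data known, so the counts are a description. Sgk1, a kinase that acts downstream of aldosterone and glucocorticoids to keep the channel at the surface, was 25.7, 34.2 and 30.9 TPM in DSS and 11.3, 11.99 and 8.2 TPM in control libraries (log2 fold change 1.45, SE 0.18, adjusted p = 0.0106). Hsd11b2, which inactivates glucocorticoids and so leaves the mineralocorticoid receptor to aldosterone, was 10.6, 6.31 and 15.4 TPM in DSS and 2.89, 1.9 and 2.24 TPM in control libraries (log2 fold change 1.75, SE 0.30, adjusted p = 0.0219). Wnk4, a kinase of the chloride cotransporter pathway, also rose and was nearly equal within each group, at 42.2, 42.2 and 42.5 TPM in DSS and 27.5, 25.2 and 25.5 TPM in control libraries (log2 fold change 0.68, SE 0.09, adjusted p = 0.013). Prss8, which encodes prostasin, a protease that activates the channel, fell to 67.8, 55.1 and 53.9 TPM in DSS, against 106, 89.9 and 79.4 TPM in control libraries (log2 fold change −0.63, SE 0.15, adjusted p = 0.0442). The Prss8 call was lost with no filter (adjusted p = 0.07), with centring on pan-epithelial markers (adjusted p = 0.138) and without a variance trend (adjusted p = 0.0574). Nr3c2, the mineralocorticoid receptor gene, was 10.7, 27.5 and 26.1 TPM in DSS and 20.04, 22.2 and 21.7 TPM in control libraries (log2 fold change −0.1, SE 0.34, adjusted p = 0.874), with DSS replicate 1 the lowest.

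**Figure D2:**
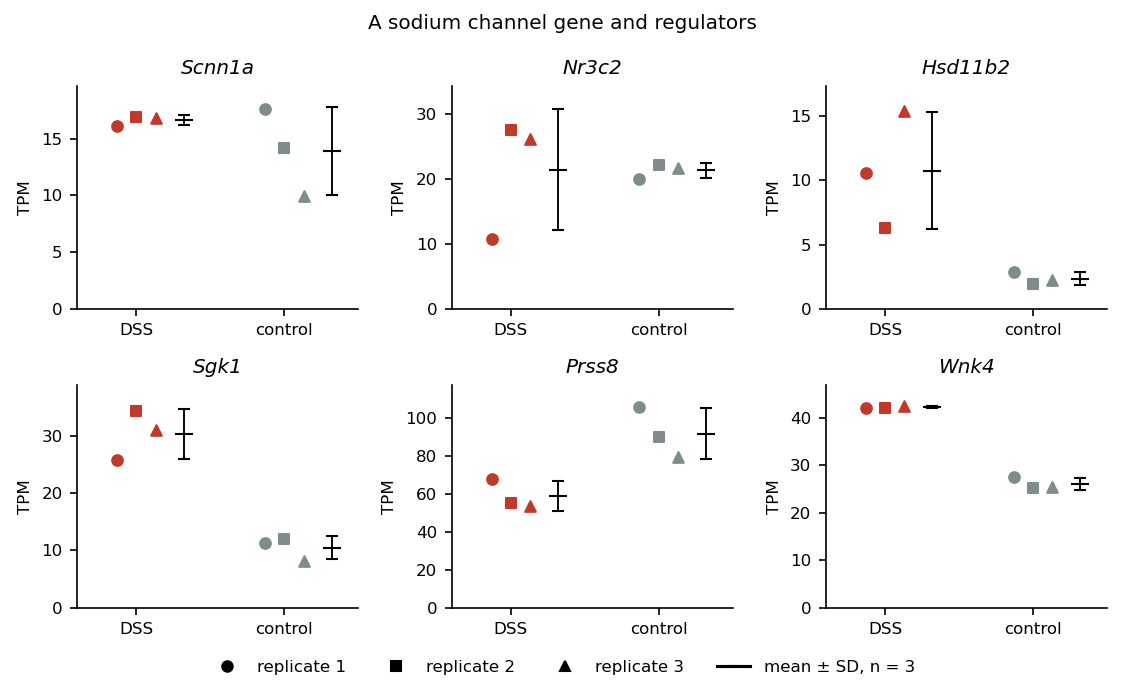
TPM (vertical axis, from 0) of the channel gene Scnn1a and 5 regulators in 3 DSS and 3 control libraries, with mean ± SD (n = 3). Sgk1, Hsd11b2 and Wnk4 lay above and Prss8 below the control values in each DSS library, while Scnn1a and Nr3c2 overlapped.

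The microvillus genes spread widely within the DSS group. None of the 6 passed the test, and DSS replicate 1 was the lowest DSS library in all 6. Cdhr2, one of the protocadherins that form the tip links, was 63.7, 206 and 149.7 TPM in DSS and 175, 189.6 and 176 TPM in control libraries (log2 fold change −0.52, SE 0.39, adjusted p = 0.425). Cdhr5, its binding partner, was 196, 316 and 287 TPM in DSS and 272, 260.3 and 235 TPM in control libraries (log2 fold change 0.034, SE 0.18, adjusted p = 0.923), a value whose sign turned negative after median-ratio scaling and quantile normalization. The motor Myo7b, which carries the tip link complex, was 31.3, 82.3 and 71.2 TPM in DSS and 60.96, 69.5 and 63.8 TPM in control libraries (log2 fold change −0.18, SE 0.34, adjusted p = 0.766). The 3 genes thus stood at 35.4%, 76.8% and 48.3% of the control mean in DSS replicate 1 and at 114%, 124% and 127% in DSS replicate 2. Ush1c, the scaffold harmonin that joins the protocadherins to the motor, was 90.6, 114 and 117 TPM in DSS and 76.7, 81.9 and 91 TPM in control libraries (log2 fold change 0.36, SE 0.13, adjusted p = 0.132). It was the exception in this group, since DSS replicate 1 lay inside the control range. Myo1a, which ties the actin core to the membrane, was 77.4, 231 and 198 TPM in DSS and 148, 162 and 163 TPM in control libraries (log2 fold change −0.048, SE 0.39, adjusted p = 0.947). Vil1, the actin bundler villin, was 218, 410.2 and 395 TPM in DSS and 359.8, 372 and 390.4 TPM in control libraries (log2 fold change −0.19, SE 0.24, adjusted p = 0.647). For these motors and for villin, DSS replicate 1 held 48.3% to 58.2% of the control mean and DSS replicates 2 and 3 lay above the highest control value.

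**Figure D3:**
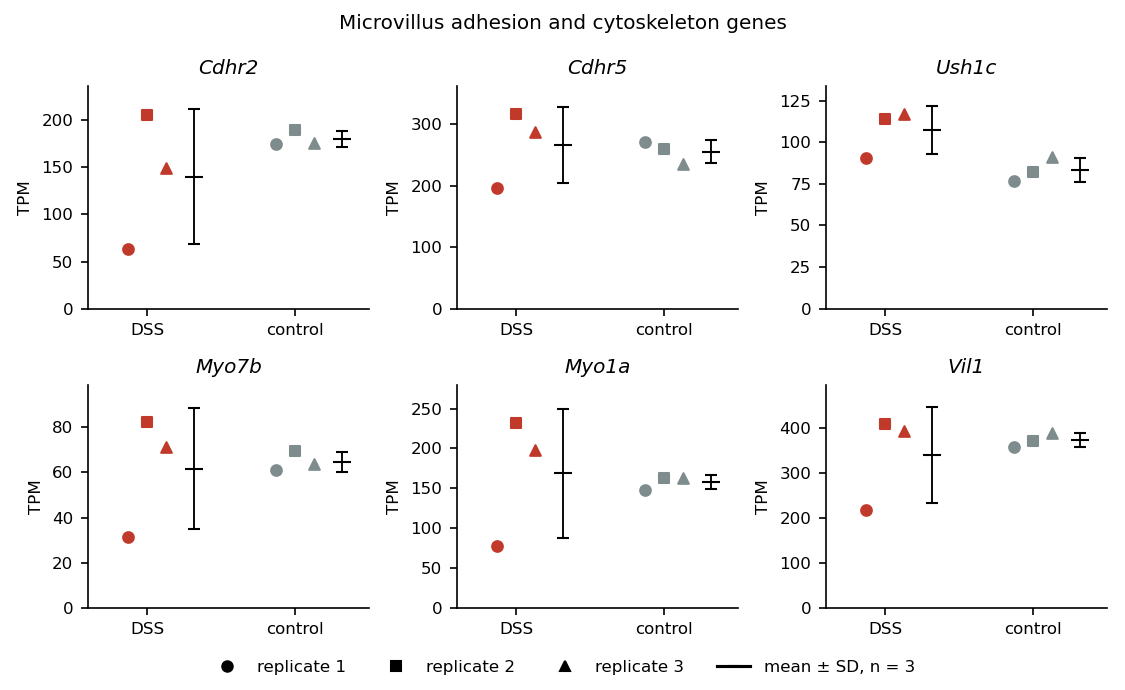
TPM (vertical axis, from 0) of 6 microvillus genes in 3 DSS and 3 control libraries, with mean ± SD (n = 3). DSS replicate 1 was below every control value for 5 of the 6 (all but Ush1c), and DSS replicates 2 and 3 were above every control value for 5 of the 6 (all but Cdhr2).

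Surface enzymes and lipid handling genes held both of the falls. Dpp4, a dipeptidyl peptidase of the brush border, fell to 1.11, 2.47 and 2.17 TPM in DSS, against 6.12, 6.97 and 10.9 TPM in control libraries (log2 fold change −1.62, SE 0.27, adjusted p = 0.0209). Apob, the structural protein of chylomicrons, fell to 0.3, 1.28 and 1.46 TPM in DSS, against 4.57, 4.54 and 3.81 TPM in control libraries (log2 fold change −1.45, SE 0.27, adjusted p = 0.0265). Neither overlapped, and both were lowest in DSS replicate 1. Apob was low, averaging 1.01 ± 0.62 TPM in DSS organoids and 2.66 TPM over the 6 libraries, the mean that the filter uses. Its log2 fold change was −2.21 with a pseudocount of 0.1 in place of 1. Alpi, the intestinal alkaline phosphatase, Mep1a, the metalloprotease meprin alpha, and Fabp2, the intestinal fatty acid binding protein, did not pass. Fabp2 was 113, 282 and 293 TPM in DSS and 156, 195 and 175 TPM in control libraries (log2 fold change 0.27, SE 0.36, adjusted p = 0.659). Mep1a was 5.61, 26.8 and 17.2 TPM in DSS and 12.96, 11.5 and 10.2 TPM in control libraries (log2 fold change 0.26, SE 0.49, adjusted p = 0.767). In both, DSS replicate 1 was below and DSS replicates 2 and 3 above every control library. Alpi stayed low, at 3.04, 6.97 and 9.31 TPM in DSS and 6.17, 5.5 and 2.36 TPM in control libraries (log2 fold change 0.36, SE 0.42, adjusted p = 0.615).

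The immunoglobulin-like and Clca proteins of the apical surface did not pass either. Ceacam20, a membrane protein of microvilli, was 2.19, 19.9 and 14.1 TPM in DSS and 3.43, 5.45 and 3.07 TPM in control libraries (log2 fold change 1.04, SE 0.67, adjusted p = 0.35), from 55.0% to 499% of the control mean within the DSS group. Clca4a was 8.9, 90.9 and 52.3 TPM in DSS and 34.1, 61.6 and 42.3 TPM in control libraries (log2 fold change −0.32, SE 0.77, adjusted p = 0.817), and Clca4b was 1.22, 8.63 and 4.94 TPM in DSS and 1.93, 4.06 and 2.1 TPM in control libraries (log2 fold change 0.49, SE 0.53, adjusted p = 0.586). All 3 ranked DSS replicate 2 above 3 above 1. Clca4a and Clca4b are close copies, and RSEM splits shared reads between them by estimation, so their separate levels are uncertain, as is that of Ceacam1 beside its near copy Ceacam2. Ceacam1, a cell adhesion molecule also made by other cell types, was 880.0, 1797 and 1348 TPM in DSS and 1470.4, 1589 and 1571 TPM in control libraries (log2 fold change −0.26, SE 0.24, adjusted p = 0.518). Tmigd1, an adhesion protein of differentiated enterocytes, was 34.1, 28.8 and 41.7 TPM in DSS and 34.7, 37.97 and 26.6 TPM in control libraries (log2 fold change 0.073, SE 0.19, adjusted p = 0.829), with the groups overlapping.

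Of 3 adhesion and lectin genes of the intestinal epithelium, 1 passed. Epcam, an adhesion molecule of epithelial cells, was 1007, 1222 and 1115 TPM in DSS and 726, 781 and 826 TPM in control libraries and rose (log2 fold change 0.52, SE 0.10, adjusted p = 0.0311). Lgals4, galectin-4, was the most abundant of the 34 genes, at 4195, 4179 and 4449 TPM in DSS and 3887, 3912 and 3810.5 TPM in control libraries (log2 fold change 0.14, SE 0.07, adjusted p = 0.254, 95% interval −0.035 to 0.32). Both were separate between the groups, but the Lgals4 difference did not pass. Cdh17, the liver-intestine cadherin, was 219.8, 643 and 472 TPM in DSS and 471, 519 and 476 TPM in control libraries (log2 fold change −0.27, SE 0.36, adjusted p = 0.669), and DSS replicate 1 lay below and DSS replicate 2 above every control library.

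DSS replicate 1 stood apart from the other DSS libraries in most of these genes. It was the lowest DSS library in 27 of the 31 tested genes (87.1%; 47.3% of all tested genes) and below every control library in 19 (61.3%; 41% of all). DSS replicates 2 and 3 were both above every control library in 19 (61.3%; 34.8% of all). For 10 genes both held at once, DSS replicate 1 below and the other DSS libraries above all controls (32.3%; 8.62% of all). Over the 31 genes the median offset from the control mean, in log2(TPM + 1), was −0.62, 0.40 and 0.32 in DSS replicates 1, 2 and 3 and between −0.11 and 0.07 in the control libraries, where the medians over all tested genes lay between −0.005 and 0.10 in the DSS libraries. The median SD of log2(TPM + 1) was 0.70 among DSS and 0.16 among control libraries for these genes, beside 0.23 and 0.12 for all tested genes. Parts of the pattern were also seen in other genes. Among the 9 pan-epithelial markers, DSS replicate 1 was the lowest DSS library in 7, all but Elf3 and Ehf. It lay below every control library in 5 of the 9, and DSS replicates 2 and 3 were both above every control library in 4. Only Cldn3 showed both at once, and Elf3 was highest in DSS replicate 1. Of 101 tested genes in the further brush border and transport list below, DSS replicate 1 was lowest in 65. It lay below every control library in 43 of these 101, near the share of all tested genes (41%). DSS replicates 2 and 3 were both above every control library in 52 (34.8% of all). The low median offset of DSS replicate 1 was not seen in this list, where the medians were 0.04, 0.26 and 0.26 in DSS replicates 1, 2 and 3. Among goblet and cycling markers, DSS replicate 1 was lowest in 0 of 7 and 0 of 6. The pattern was noticed in these libraries and is given as a description. The same library had the highest sums of cycling, goblet and stem markers, but not every marker was high in it. Muc2, Tff3, Spdef, Agr2, Ascl2, Axin2 and Smoc2 lay above every control library there. Clca1 and Fcgbp lay inside the control range, and Zg16 (659 TPM) and Lgr5 (0.48 TPM) below every control library. The part of cycling, goblet and stem marker RNA in the low brush border levels of DSS replicate 1 was not tested. The sum of the myeloid markers was higher in all 3 DSS libraries, with Lyz2 its largest part, and Lyz2 was highest in DSS replicate 2. Cd14, the next largest part, overlapped between the groups, at 86.8, 72.6 and 54.3 TPM in DSS and 52.6, 50.7 and 69.8 TPM in control libraries (limma, adjusted p = 0.389).

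**Figure D4:**
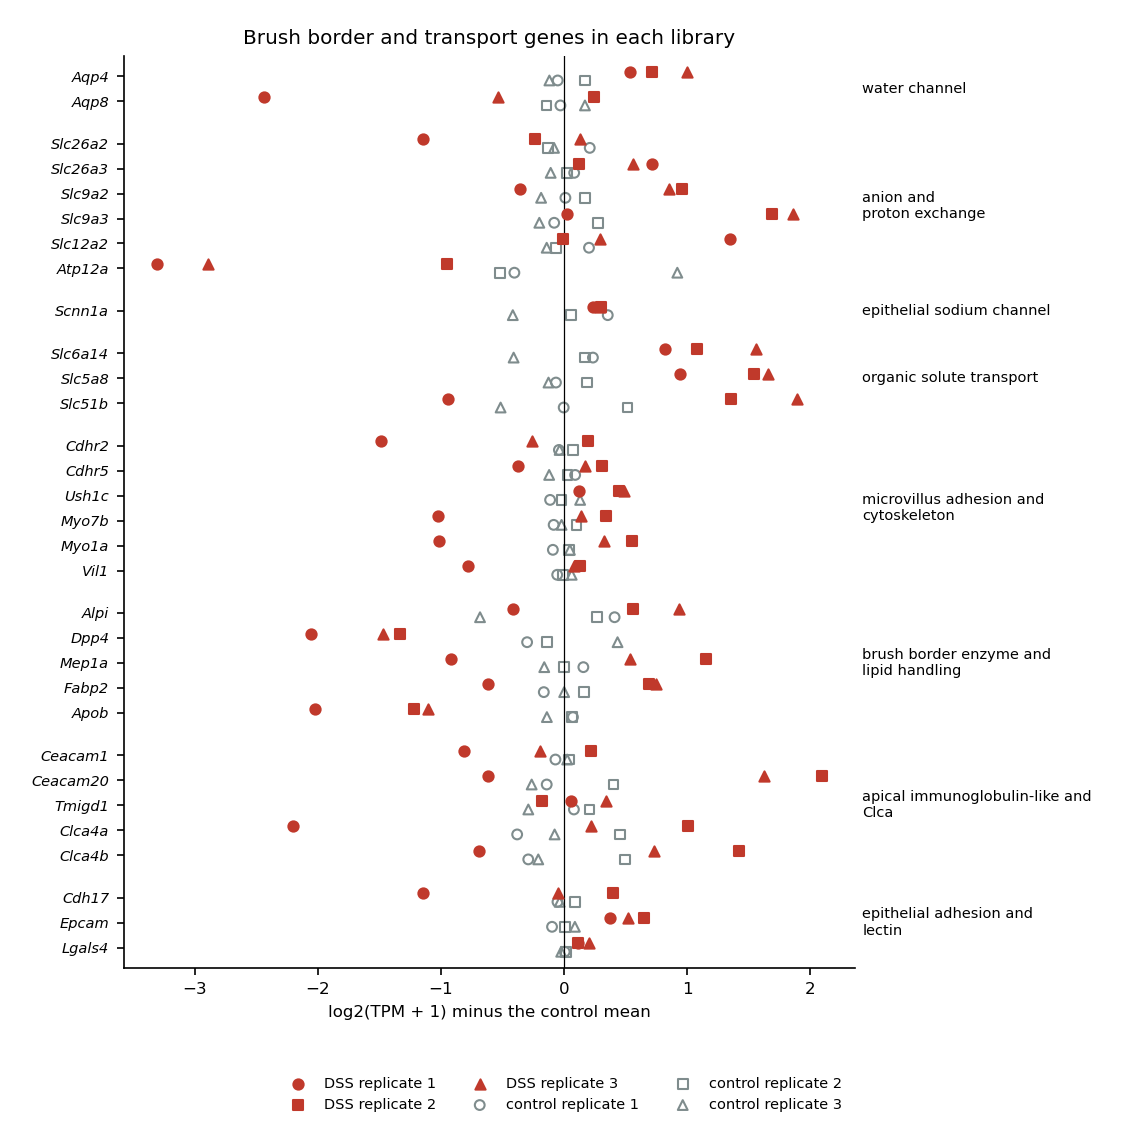
Offset of each library from the control mean in log2(TPM + 1) (horizontal axis) for the 31 tested genes, grouped by role; filled symbols are DSS and open symbols control libraries. The filled circles of DSS replicate 1 lie left of the other DSS symbols in 27 genes. The control symbols lie nearer to 0 in most genes, in part because the offset is taken from their own mean.

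Without DSS replicate 1, limma called 12 of the 31 genes higher (38.7%, where 14.5% of all tested genes were higher in that fit) and 2 lower (6.45%, where 6.93% were lower). The library left out was the one already seen to be lowest in most of these genes, so more higher calls follow from that choice, and the counts are a description. The 6 genes called with all libraries remained, and 8 were added, all higher. They were the exchangers Slc9a3 (log2 fold change 1.78, adjusted p = 0.00391) and Slc9a2 (log2 fold change 0.91, adjusted p = 0.00925), Slc51b (log2 fold change 1.62, adjusted p = 0.0211), Ceacam20 (log2 fold change 1.86, adjusted p = 0.00879), Mep1a (log2 fold change 0.84, adjusted p = 0.0339), Fabp2 (log2 fold change 0.72, adjusted p = 0.0119), Ush1c (log2 fold change 0.47, adjusted p = 0.0234) and Myo1a (log2 fold change 0.44, adjusted p = 0.0296). Cdhr2, Vil1, Ceacam1, Cdh17 and Aqp8 were not called in that fit either, with log2 fold changes between −0.15 for Aqp8 and 0.17 for Cdh17. The sign of Myo7b, Myo1a, Vil1, Ceacam1, Clca4a and Cdh17 turned from negative to positive when that library was left out. The median over the 31 genes became 0.34, beside 0.08 over all tested genes.

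**Figure D5:**
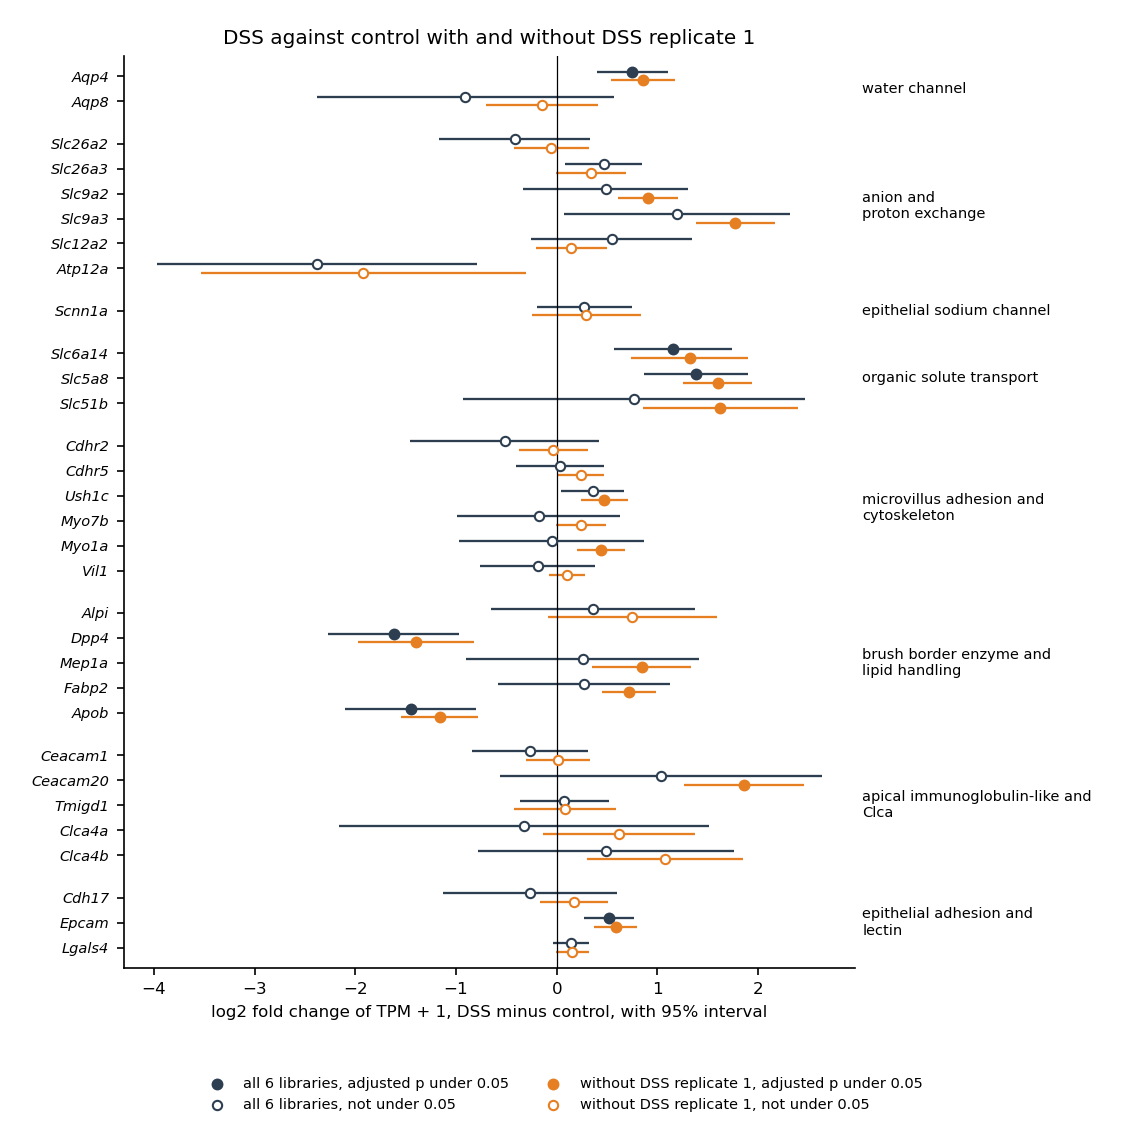
Log2 fold change of TPM + 1, DSS minus control, with its 95% interval (horizontal axis) for the 31 tested genes, from all 6 libraries (dark) and without DSS replicate 1 (orange); filled points have an adjusted p under 0.05. 6 genes are filled in the full fit and 14 without DSS replicate 1, among them Slc9a3 at 1.78 and Ceacam20 at 1.86.

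The 6 calls depended on which library was left out. Without control replicate 1, 2 or 3, or without DSS replicate 3, none of the 6 passed, while all 6 did without DSS replicate 1 and all but Slc6a14 (adjusted p = 0.0501) without DSS replicate 2. Over the whole table, 139 genes passed when control replicate 1 was left out, 30 when it was control replicate 2, 140 when it was control replicate 3 and 104 when it was DSS replicate 3, but 2498 when it was DSS replicate 1 and 1805 when it was DSS replicate 2, beside 1204 with all libraries. Across the fits that left out 1 library, the adjusted p ranged from 0.0119 to 0.107 for Aqp4, 0.00391 to 0.0796 for Slc5a8, 0.0173 to 0.12 for Slc6a14, 0.0114 to 0.141 for Epcam, 0.0147 to 0.0967 for Dpp4 and 0.00931 to 0.124 for Apob. The log2 fold changes moved less, staying between 1.24 and 1.6 for Slc5a8 and between −1.77 and −1.40 for Dpp4.

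Other genes of the brush border and of transport were counted from a list of 125, 101 of them tested. Of these 19 rose (18.8%, beside 6.45% of all tested genes) and 3 fell (2.97%, beside 3.89%). Cd36 and Xpnpep2, among the 19, passed the filter only through their DSS levels. The list was written with earlier results of these data known, so these counts are a description. These counts also depended on single libraries. With control replicate 1, 2 or 3 or DSS replicate 3 left out, 3, 1, 3 and 2 were called higher and 0 lower, and with DSS replicate 1 left out 35 were called higher and 5 lower. Among ion transport genes, the potassium channel gene Kcnq1 was 43.2, 29.7 and 37.5 TPM in DSS and 14.97, 15.4 and 21.7 TPM in control libraries (log2 fold change 1.05, SE 0.19, adjusted p = 0.0252). The potassium-chloride cotransporter Slc12a7 also rose (log2 fold change 0.69, SE 0.11, adjusted p = 0.0199). Among nutrient carriers, the lactate exporter Slc16a3 was 89.9, 132 and 97.95 TPM in DSS and 27.2, 42.1 and 29.2 TPM in control libraries (log2 fold change 1.68, SE 0.21, adjusted p = 0.0112). Cd36, a fatty acid receptor that macrophages also express, was 4.56, 16.8 and 9.69 TPM in DSS and 0.2, 0.09 and 0.2 TPM in control libraries (log2 fold change 3.13, SE 0.40, adjusted p = 0.0114). Its control mean of 0.16 TPM lay under the filter, so it was tested only because of its DSS levels. It was highest in DSS replicate 2, as Lyz2 and Tyrobp were, and the part of myeloid RNA in it was not tested. Slc16a1, which carries short-chain fatty acids as Slc5a8 does, was 104, 128 and 143 TPM in DSS and 99.4, 84.95 and 94.2 TPM in control libraries (log2 fold change 0.41, SE 0.14, adjusted p = 0.107) and was not called.

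Among hydrolase and lipid genes, Mgam, a glucosidase of the brush border, was 41.6, 52.4 and 52.3 TPM in DSS and 25.98, 28.01 and 27.02 TPM in control libraries (log2 fold change 0.82, SE 0.12, adjusted p = 0.0163), and the peptidases Ace (log2 fold change 1.26, SE 0.28, adjusted p = 0.0413) and Xpnpep2 (log2 fold change 1.34, SE 0.24, adjusted p = 0.0233) and the triglyceride synthesis enzyme Dgat1 (log2 fold change 0.65, SE 0.12, adjusted p = 0.0242) rose too. The control mean of Xpnpep2, 0.94 TPM, lay under the filter, so it was tested only because of its DSS levels. Naaladl1, a peptidase, fell to 1.6, 2.06 and 1.61 TPM in DSS, against 5.37, 3.99 and 5.8 TPM in control libraries (log2 fold change −1.13, SE 0.18, adjusted p = 0.0188). Mttp, which loads lipid onto the Apob protein, was 1.02, 3.5 and 2.25 TPM in DSS and 4.89, 4.33 and 4.71 TPM in control libraries, separate as Apob was, without a call (log2 fold change −0.87, SE 0.29, adjusted p = 0.107). Of 21 tested microvillus genes outside the 34, 1 rose and 0 fell, where 6.45% of all tested genes were called higher and 3.89% lower. The 1 was Calml4, a light chain of the tip link motor, at 302, 366 and 319 TPM in DSS and 202, 233 and 256 TPM in control libraries (log2 fold change 0.52, SE 0.13, adjusted p = 0.0485). DSS replicate 1 was the lowest DSS library in 17 of the 21, and in 47.3% of all tested genes. The Calml4 call was kept with a pseudocount of 0.1 and lost under the other 7 alternatives that used all 6 libraries, with adjusted p between 0.0515 and 0.0804.

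Of 12 tested transcription factors that act on colonocyte genes, 6 rose and 1 fell. Over all tested genes 6.45% were called higher and 3.89% lower. These factors were listed with earlier results of these data known, so the counts are a description. DSS replicate 1 was the lowest DSS library in 6 of the 12, near its share of all tested genes (47.3%). Hnf4a was 320.0, 345 and 359 TPM in DSS and 194, 174 and 169.7 TPM in control libraries (log2 fold change 0.93, SE 0.10, adjusted p = 0.0068), and Cdx2 was 303, 302 and 327 TPM in DSS and 156, 157 and 142 TPM in control libraries (log2 fold change 1.03, SE 0.09, adjusted p = 0.00553). Every DSS library lay above every control library for both. The vitamin D receptor gene Vdr (log2 fold change 0.97, SE 0.15, adjusted p = 0.0173), Pparg (log2 fold change 0.98, SE 0.16, adjusted p = 0.018) and Nr5a2 (log2 fold change 0.80, SE 0.14, adjusted p = 0.0225) rose as well. Klf5, a factor of crypt cells, fell to 103, 154 and 157 TPM in DSS, against 224, 218 and 228 TPM in control libraries (log2 fold change −0.72, SE 0.17, adjusted p = 0.0471). Cdx1 (log2 fold change 0.52, SE 0.14, adjusted p = 0.0637) and Hnf4g (log2 fold change 0.47, SE 0.16, adjusted p = 0.104) did not pass. Nr1h4, the bile acid receptor that in mouse ileum drives the organic solute transporter genes, was 38.7, 75.4 and 75.6 TPM in DSS and 53.6, 59.7 and 62.4 TPM in control libraries (log2 fold change 0.047, SE 0.26, adjusted p = 0.924), and its sign turned after median-ratio scaling.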

How the data were processed

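RNA-seq was analysed for organoids of 3 DSS and 3 control mice, 1 library per mouse. The authors trimmed reads with Trim Galore 0.6.7 and cutadapt 3.5, mapped them with STAR (2.7.7a for the reference, 2.7.10a for mapping) to GRCm39 and deposited gene TPM values from RSEM 1.3.1, one column per library and none pooled. TPM keeps no depth, so no counting interval is given. Whether the kit marked strand is not given, and reads of overlapping genes may not have been told apart. No pair of libraries matched throughout, with at most 75 of the 11643 tested genes equal in a pair.

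The scale was log2(TPM + 1), for genes with a mean of at least 1 TPM over the 6 libraries, and limma 3.58.1 in R 4.3.3 was used with variances moderated along a trend in mean level, two-sided, with Benjamini-Hochberg adjustment over all genes tested. Fold changes on this scale understate the change of low genes. SE is the moderated one. The fit was tested on simulated data. Genes under the filter were compared by an exact permutation test of mean TPM. The 34 genes and the lists of further genes and markers were chosen with earlier results of these data known. All 34 were named, and of the further genes those past the threshold, except 2 that are counted but not reported here, and the regulators Hnf4a, Hnf4g, Cdx1, Cdx2, Nr1h4, Nr3c2 and Sgk1. Slc16a1 and Mttp were named after their values were seen. Alternatives were a pseudocount of 0.1, no filter, a mean of at least 5 TPM, median-ratio, quantile and pan-epithelial scaling, no variance trend, a replicate block, and each library left out. Promoter sequences are from RefSeq.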

Additional observations from a re-analysis of the deposited data

How the results depend on the processing

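The direction of the 6 called genes held under every alternative in which each was tested. All 6 passed with a pseudocount of 0.1, after median-ratio scaling, quantile normalization and centring on pan-epithelial markers, while 5 passed without a variance trend. With a replicate number as a block, 1 gene was higher, 1 lower, 1 further gene of the transport list lower and 531 genes were called over the table. The numbers did not pair the samples, with correlations of 0.2, 0.0308 and 0.0352 between same-numbered deviations, and not every sample correlated best with its own number. With no filter, 759 genes were called over the table, 2 of the 34 higher and 1 lower, and 1 of the further genes lower. A mean of at least 5 TPM left 0 lower, because Dpp4 and Apob lay under it. Centring on pan-epithelial markers called 678 genes, and a fit without a variance trend left 1 further gene lower. Of 1204 genes in all, 751 higher and 453 lower, the fits with 1 library left out gave 30 to 2498, and of the 34 genes 0 to 12 higher and 0 to 3 lower. They gave 1 to 35 of the further genes higher and 0 to 5 lower, and a median over the 31 genes of 0.06 to 0.34. After median-ratio scaling and quantile normalization 751 and 453 calls became 622 higher and 588 lower (median-ratio) and 559 higher and 611 lower (quantile), and the sign of Cdhr5 turned (−0.026 and −0.014), as did that of Nr1h4 after median-ratio scaling (−0.012). Signs also turned in fits with 1 library left out, where the log2 fold change ranged from −0.11 to 0.36 for Nr1h4, from −0.10 to 0.24 for Cdhr5, from −0.071 to 0.20 for Tmigd1, from −0.44 to 0.24 for Myo7b, from −0.35 to 0.44 for Myo1a, from −0.35 to 0.11 for Vil1, from −0.50 to 0.013 for Ceacam1, from −0.99 to 0.62 for Clca4a, from −0.60 to 0.17 for Cdh17, from −0.33 to 0.32 for Nr3c2, from −0.19 to 0.84 for Mep1a. None of these was called with all libraries. Of the further genes named, Ace, Dgat1, Kcnq1, Klf5, Naaladl1, Nr5a2, Slc12a7 and Vdr lost their call under at least 1 alternative that used all 6 libraries, with adjusted p between 0.0509 and 0.0821 there.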
